A study of Mus musculus with 14 samples.

Results

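The data described here were the untreated baseline of the series: the 5 Control libraries of 14 libraries in all, chosen as the columns of the count table that the labels give as Control. Control animals were ICR mice, an outbred strain, that received no virus, and their hearts were collected on postnatal day 12. Nuclei were isolated and enriched for PCM1, a centriolar satellite protein that sits at the nuclear envelope of cardiomyocytes, so the RNA was prepared from heart nuclei and not from whole cells; mitochondrially encoded RNA, which lies outside nuclei, was nonetheless counted in all 5 libraries. PolyA-selected, non-directional libraries were sequenced and counted per gene by the authors. Controls 1 and 2 were labelled batch 1, and Controls 3, 4 and 5 were labelled batch 2. No label says whether the libraries came from separate animals, so p-values cover the variation among these samples alone, part of which could be technical. The remaining libraries, from virus-treated mice, are not described.

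In the first weeks after birth mouse cardiomyocytes leave the cell cycle, enlarge, and replace fetal contractile and metabolic isoforms by mature ones. The sarcomere, their contractile unit, pulls thick filaments of myosin along thin filaments of actin, tropomyosin and troponin, with titin as a spring between the Z-disc and the M-band. In mouse ventricle the fast myosin Myh6 takes over from the fetal myosin Myh7 around birth, cardiac troponin I (Tnni3) replaces the slow skeletal form (Tnni1), and fuel use turns from glucose towards fatty acids.

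Total counts were 16171068, 17112049, 23238128, 24027622 and 21879077 in Controls 1 to 5. Genes of the mitochondrial genome made up 60.7% and 67.5% of all counts in batch 1 (Controls 1 and 2), and 5.54%, 6.34% and 13.9% in batch 2 (Controls 3, 4 and 5). The batches did not overlap, and the counts left for nuclear genes were 6347527 and 5554085 in batch 1 against 18842145 to 22503322 in batch 2. All levels below leave the 37 mitochondrially encoded genes out of the total and are given as CPM, counts per 1000000 counts of the rest. Xist, the noncoding RNA of the inactive X chromosome, was at 0 in Controls 1, 2 and 3 and at 959 and 1112 CPM in Controls 4 and 5. Eif2s3y, on the Y chromosome, had 404, 389 and 507 CPM in Controls 1, 2 and 3 and was at 0 in Controls 4 and 5. Batch 1 therefore held 2 libraries of the Y-bearing kind and batch 2 held 1 of that kind and 2 with Xist, so that batch and this split are mixed in part.

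Myosin, troponin and titin transcripts led the nuclear RNA. Myh6, which encodes the alpha myosin heavy chain, had 29655, 25699, 52729, 43298 and 36193 CPM in Controls 1 to 5, a mean of 37515 ± 10817 (SD, n = 5). The 2 batch 1 libraries lay below all 3 batch 2 libraries, and 3.75% of all nuclear-gene counts on average came from this gene. Tnnt2, cardiac troponin T, followed with 13146, 15462, 16004, 15353 and 15647 CPM, nearly level except for the lower value of Control 1. Mybpc3, cardiac myosin-binding protein C of the thick filament, had 12124, 8393, 17226, 14458 and 14637 CPM. Ttn, titin, had 14121, 16275, 11670, 10040 and 9253 CPM. Titin ran the other way from Myh6 and Mybpc3, with both batch 1 libraries above the batch 2 libraries, but none of these genes passed the test between batches described below.

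The promoter windows of 3 leading or isoform-switching sarcomere genes are shown because 6 of 10 filament genes held a short motif in such windows. The genes shown were taken from those with a match, and where a gene had several windows the first with a match is shown. The windows are the 250 bases before a RefSeq transcription start in GRCm38.p6, written 5′ to 3′ on the gene's strand, with each match to the MCAT motif GGAATG or its reverse complement in capitals. They lie at chr14:54966608-54966857 on the minus strand for Myh6, chr14:54994627-54994876 on the minus strand for Myh7 and chr1:135836084-135836333 on the plus strand for Tnnt2.
Myh6: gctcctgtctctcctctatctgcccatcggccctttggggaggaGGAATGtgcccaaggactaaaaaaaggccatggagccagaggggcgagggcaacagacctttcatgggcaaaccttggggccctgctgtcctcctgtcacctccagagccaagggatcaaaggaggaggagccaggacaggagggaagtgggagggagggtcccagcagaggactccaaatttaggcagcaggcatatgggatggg
Myh7: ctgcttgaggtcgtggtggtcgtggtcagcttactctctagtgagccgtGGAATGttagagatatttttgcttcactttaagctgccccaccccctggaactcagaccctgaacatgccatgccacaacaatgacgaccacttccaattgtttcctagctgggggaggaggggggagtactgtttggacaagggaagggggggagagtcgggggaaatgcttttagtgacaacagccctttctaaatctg
Tnnt2: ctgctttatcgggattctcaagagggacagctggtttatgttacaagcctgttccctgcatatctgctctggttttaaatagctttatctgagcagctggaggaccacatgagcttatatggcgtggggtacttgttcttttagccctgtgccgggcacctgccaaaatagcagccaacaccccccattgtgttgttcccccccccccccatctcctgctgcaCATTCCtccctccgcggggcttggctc
The motif, searched on both strands, was found in 6 of 10 thick and thin filament genes (Myh6, Myh7, Myl3, Tnnt2, Tnnc1 and Tpm1) and in 14.4% of all 27025 genes with a window, where a gene counted if any of its windows held a match. MCAT is known as the site of TEAD factors in cardiac promoters. A match in these letters is a description and says nothing of binding in these nuclei.

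Of the 30 genes with the highest mean CPM, 8 were on the list of 15 cardiomyocyte markers. The 30 leading genes of each library held 15.1%, 14.7%, 20.1%, 17% and 15.4% of its nuclear-gene counts, and it took 722, 734, 471, 655 and 729 genes to reach 50% of the counts. Control 3 was the most concentrated library. Besides the genes above, the leading 30 included Myom1 (the M-band protein myomesin, 5631 ± 882 CPM), Nexn (the actin-binding Z-disc protein nexilin, 3110 CPM) and Tpm1 (tropomyosin). Ion handling was represented by Cacna1c, the pore subunit of the L-type calcium channel (2767 ± 511 CPM), Atp2a2, the calcium pump of the sarcoplasmic reticulum (2591 ± 252 CPM), and Slc4a3, a chloride and bicarbonate exchanger (2976 CPM). The errors are SDs over 5 libraries.

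A second set among the leading genes was not contractile. Ivns1abp, a kelch protein first found as a partner of an influenza protein, had 5441, 5377, 9546, 5148 and 7210 CPM. Neat1, the noncoding RNA that scaffolds paraspeckles in the nucleus, had 4634, 6462, 4920, 9846 and 3823 CPM, with Control 4 the highest. Malat1, another abundant nuclear noncoding RNA, ranked only 233, with 371, 332, 667, 610 and 763 CPM. For Malat1 both batch 1 libraries were the lowest, a difference of -1.07 ± 0.21 log2 (batch 1 over batch 2, SE) with an adjusted p of 0.0629 by edgeR. The RNA-processing genes Ccnl2 (3217 CPM), Son (2207 CPM), Rbm39 (2044 CPM) and Rbm20 (1935 CPM) were also among the 30. Rbm20, which directs splicing of titin, had 1538 and 1491 CPM in batch 1 and 2391, 2058 and 2195 CPM in batch 2. Rnf207, a RING finger protein linked to cardiac repolarisation in human, and Coro6, an actin-binding coronin, averaged 4184 and 3567 CPM.

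**Figure D1:**
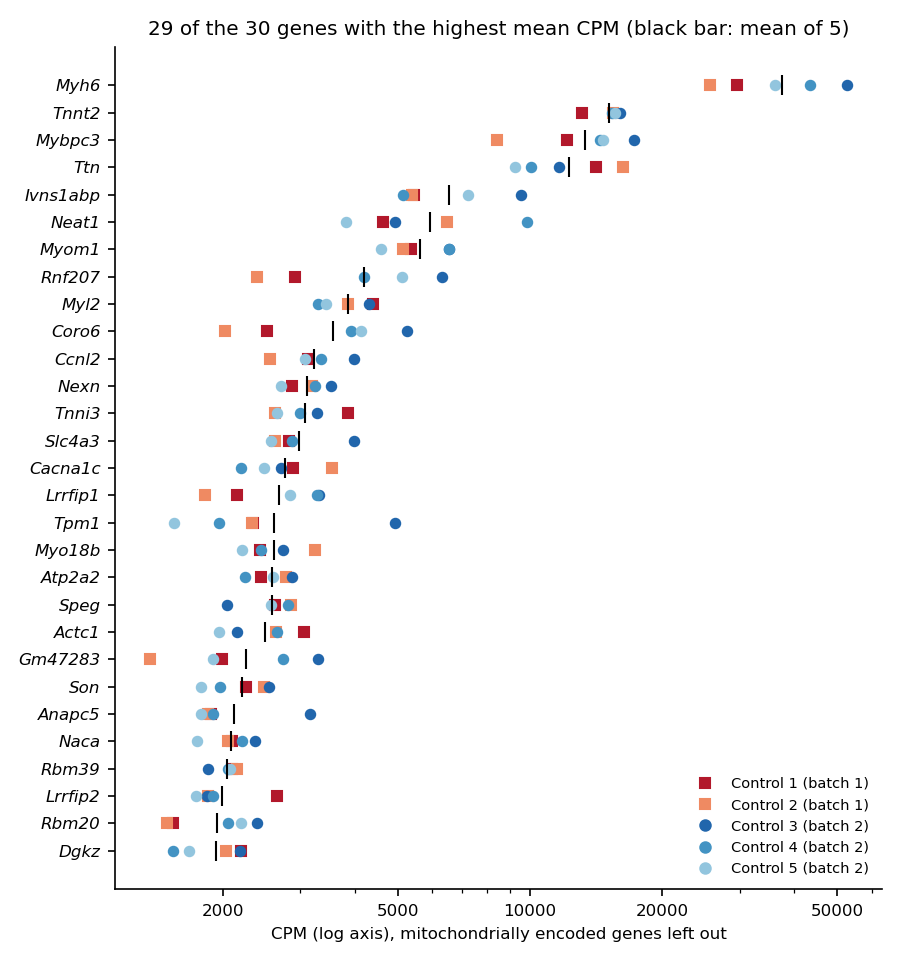
CPM on a log axis for 29 of the 30 genes with the highest mean CPM, 1 point per library (squares, batch 1; circles, batch 2) and a black bar at the mean of 5. Myh6 leads in every library, and Control 3 is the highest library for Myh6, Mybpc3, Ivns1abp, Rnf207, Coro6 and Tpm1.

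CPM is not divided by transcript length, so long genes rank high in it. Divided by the length of its exons and scaled so that each library has the same sum as in CPM (a length-scaled level, ranked for genes of at least 200 bases), Myh6 was still first at 23934 ± 7676 and Mybpc3 second at 13748, while titin ranked 254. Short sarcomere genes moved up: Myl2, the ventricular regulatory light chain, reached a length-scaled level of 8434, Actc1, cardiac actin, 6554 and Tnni3 6371. Of the 30 leading genes by CPM, 13 were among the 30 leading genes per length. Gm47283, a provisional gene annotated on the Y chromosome, ranked 3 per length, but it had 1994, 1366, 3300, 2737 and 1899 CPM and so was counted as highly in the 2 libraries without Y transcripts. Its reads therefore cannot be placed on the Y chromosome from these files. Per length, 6 of the leading 30 were pseudogene copies of mitochondrially encoded genes (Gm29216, Gm28661, Gm13340, Gm10925, Gm28437 and Gm13341), each at least 95.9% identical to its match.

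The cell type label was checked with marker lists. All 15 cardiomyocyte markers had counts in all 5 libraries and summed to 89894, 85348, 118311, 104392 and 93765 CPM, or 9.83% ± 1.32 of the nuclear-gene counts (SD, n = 5). Per length the list reached a summed level of 71782 ± 12649, against 1313 ± 335 for 10 fibroblast genes, 985 ± 433 for 14 endothelial genes, 564 ± 153 for 9 mural genes of pericytes and smooth muscle, 256 ± 153 for 12 macrophage genes and 27.9 ± 9.37 for 8 lymphocyte genes. The lists differ in size and in how abundant their genes are, so these sums give an order of levels and not shares of nuclei. In bulk RNA, fewer nuclei of a type and less RNA per nucleus cannot be told apart.

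Transcripts of non-cardiomyocyte cells were present but low. Among fibroblast genes Col3a1, a fibrillar collagen, was the most abundant with 1170, 936, 628, 911 and 1218 CPM, and Postn, periostin of growing connective tissue, had 676, 629, 325, 538 and 611 CPM. Control 3 was the lowest library for both, and for 9 of 10 fibroblast genes, where 34% of all tested genes were lowest in it. Endothelial genes were higher in batch 1: the list summed to 1318 and 1841 CPM in Controls 1 and 2 and to 781, 677 and 809 CPM in Controls 3, 4 and 5. Eng, endoglin, a co-receptor for TGF-beta ligands on endothelium, had 178 and 297 CPM in batch 1 and 103, 111 and 111 CPM in batch 2. Across the 14 endothelial genes the median log2 difference was 0.84 (batch 1 over batch 2), against -0.04 over all 16133 genes tested. The batches did not overlap for 13 of 14, against 32.4% of all genes tested. But only Fabp4, a fatty acid-binding protein of endothelium and fat, passed edgeR's test (1 of 14, where 0.248% of all genes tested were called higher). By edgeR 9 of 14 had an unadjusted p under 0.05, against 2250 of all 16133. DESeq2 called 5 and limma-voom 1, against 668 and 76 of the 16133 in either direction. Macrophage genes summed to 120, 278, 60.2, 134 and 147 CPM, and Csf1r, the receptor that macrophages need for survival, had 84.1 CPM in Control 2 against 21.8 to 37.4 CPM in the other libraries.

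**Figure D2:**
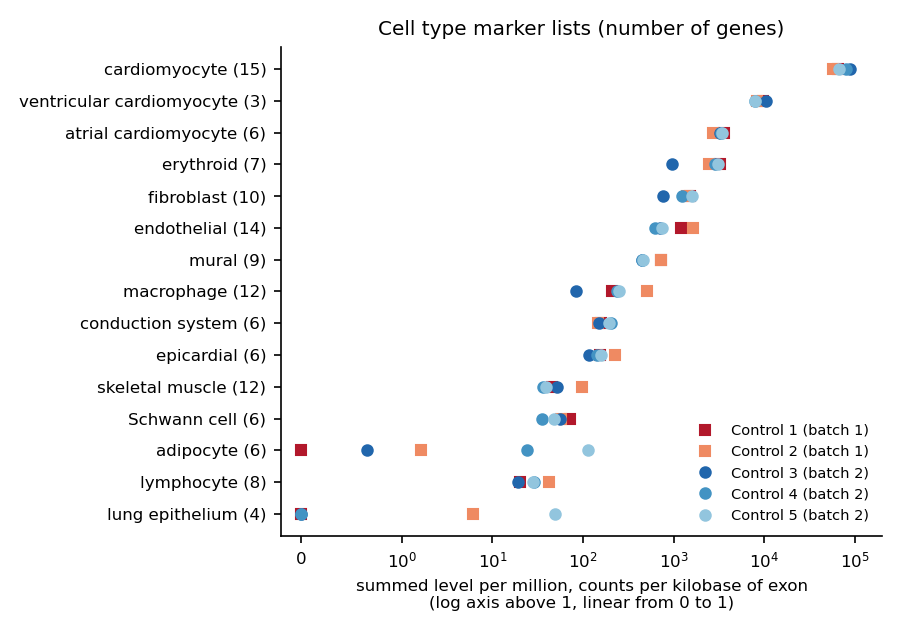
Summed length-scaled level of 15 cell type marker lists, 1 point per library (squares, batch 1; circles, batch 2), on an axis that is logarithmic above 1 and linear from 0 to 1, with the number of genes in each list in brackets. Cardiomyocyte genes average 71782, the next non-muscle lists, erythroid and fibroblast, 2539 and 1313, and adipocyte and lung genes reach 0 in some libraries.

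Red cell genes had the highest summed level per length of the non-muscle lists, 2539, and summed to 476 ± 181 CPM. Lists of epicardial, skeletal muscle, fat and lung genes summed lower, and the source of these transcripts was not tested. Hbb-bs, adult beta globin of red cells, had 330, 247, 72.1, 289 and 340 CPM, and Hba-a1 had 264, 197, 94.3, 209 and 216 CPM, with Control 3 the lowest for both. Hba-a2 is nearly identical to Hba-a1 and was close to 0, so the split between them is uncertain. Epicardial genes led by Msln, mesothelin, summed to 113 ± 27.5 CPM. Fast skeletal muscle transcripts were nearly absent: Myh1, Myh4, Tnnc2 and Myog were at 0 in all 5 (Tnnc2 with 74% of its exon bases overlapped on the other strand, so its 0 is uncertain), and the list of 12 summed to 25.4 ± 10.3 CPM, most of it Tnnt3. A count of 0 in all 5 libraries allows a level of up to 0.0399 CPM (3 counts over the 5 libraries, counting error only). Control 5 stood out in fat genes. Ucp1, the uncoupling protein of brown fat, was at 0 in Controls 1, 2 and 3 and had 8.18 and 34.1 CPM in Controls 4 and 5, and Scgb1a1, a secretoglobin of lung airway cells, had 5.25 CPM in Control 5 and was at 0 in the other 4. The 6 adipocyte genes averaged 12.3 CPM with Control 5 and 2.91 CPM without it.

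Among cardiomyocytes, ventricular transcripts outweighed atrial ones. Myl2 had 4403, 3849, 4311, 3298 and 3442 CPM, and Myl7, the atrial regulatory light chain, had 400, 274, 336, 356 and 399 CPM. Per length this was a ratio of 1.73 ± 0.30 on the log2 scale, or 3.32-fold. The 6 atrial genes summed to 999 ± 90.8 CPM, most of it Myl4, the atrial and fetal essential light chain, with 673, 661, 592, 553 and 417 CPM, and Myl7. Of the others, Sln, sarcolipin, averaged 24.3 CPM and Bmp10, an atrial growth factor, 15.4 CPM. Nppa, atrial natriuretic peptide, averaged 14.6 ± 2.36 CPM, but 61.5% of its exon bases overlap an antisense gene and its count is uncertain. The ventricular transcription factor Hey2 had 8.66 and 1.08 CPM in Controls 1 and 2 and 39.1, 40.8 and 52.8 CPM in Controls 3, 4 and 5. Hey2 thus separated the batches without overlap, yet its adjusted p by edgeR was 0.0975. Conduction system genes summed to 202 ± 29.4 CPM, of which Gjc1, connexin 45, made up most.

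The maturation state was described with 14 pairs of related genes, as log2 ratios of counts per kilobase with 0.5 added to each count. Each pair set a muscle, mature or ventricular form over an early, general or atrial form. The light chain pairs Myl2 over Myl7 and Myl3 over Myl4 also differ by chamber. All libraries were of the same age, so the ratios are not set against another stage. In 11 of 14 pairs the first form was higher in all 5 libraries, and in 3 pairs the second form was. Myh6 over Myh7 was 5.51, 5.79, 5.30, 5.83 and 5.62 in Controls 1 to 5, a mean of 5.61 ± 0.22 or 48.8-fold. The myosin ratio differed little between libraries even though Myh6 and Myh7 were each highest in Control 3, where Myh7 had 1715 CPM against 594 to 972 CPM in the others. Tnni3 over Tnni1 was 5.82 and 6.18 in batch 1 and 4.57, 4.71 and 4.29 in batch 2. The batches did not overlap in the troponin ratio, and the difference lay in Tnni1, with 119 and 63.2 CPM in batch 1 and 241, 200 and 236 CPM in batch 2 (-1.44 ± 0.29 log2, adjusted p = 0.0648 by edgeR), while Tnni3 was 2630 to 3855 CPM throughout.

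Actc1 over Acta1, cardiac over skeletal actin, was 5.21, 6.07, 9.03, 5.96 and 6.05. Control 3 stood apart as Acta1 was at 3.87 CPM there against 28.1 to 78.3 CPM in the other libraries, while Actc1 was 1964 to 3058 CPM. The mean ratio was 6.47 ± 1.48 with Control 3 and 5.82 ± 0.41 without it. The essential light chains were closer together: Myl3, the ventricular form, over Myl4 averaged 1.41 ± 0.28, or 2.66-fold. Without dividing by length, 9 pairs instead of 11 were higher in all 5 libraries: Myl3 over Myl4 averaged 0.23 and was above 0 in 4 libraries, and Cox8b over Cox8a averaged 0.22 and was above 0 in 3. Myl2 over Myl7 was 3.45 without length, against 1.73 with it.

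Metabolic pairs were mixed. Slc2a4, the insulin-responsive glucose transporter, exceeded Slc2a1, the general transporter, by 4.31 ± 0.86 on the log2 scale, with Slc2a1 at 1.98 CPM in Control 2. Eno3 over Eno1 (muscle enolase) averaged 3.83 ± 0.58, Pfkm over Pfkp (muscle phosphofructokinase) 3.32 ± 0.50 and Hk2 over Hk1 (hexokinase) 1.72 ± 0.44. For cytochrome oxidase, the heart and muscle subunits Cox6a2 and Cox8b exceeded their general forms by 1.16 ± 0.56 and 1.00 ± 0.40 per length (Cox8b by 0.22 without length), but Cox7a1 over Cox7a2 was -0.64, -0.15, -0.49, -0.07 and -0.24, so the general subunit was still the higher in each library. Creatine kinase ran the same way. Ckm, the muscle form, had 94.1, 60.7, 47.6, 56.5 and 52.0 CPM, and Ckb, the brain form, 178, 104, 123, 195 and 158 CPM, a log2 ratio of -1.30 ± 0.43 per length. Cpt1b, the muscle form of the enzyme that admits fatty acids to mitochondria, was at 0 to 7.54 CPM, below Cpt1a in every library, but 81.4% of its exon bases are shared with a readthrough gene on the same strand and its counts are uncertain.

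**Figure D3:**
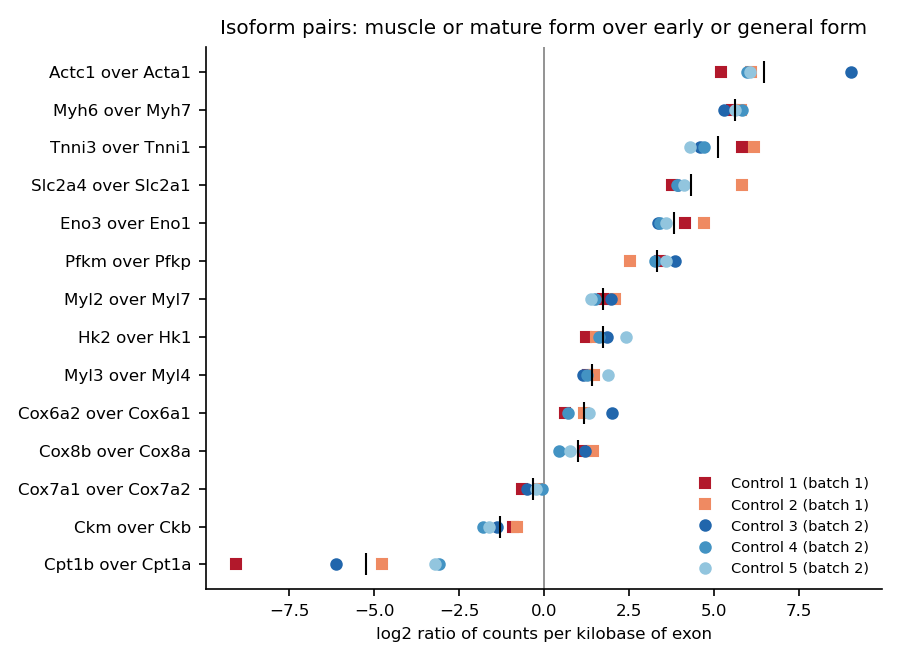
Log2 ratio of counts per kilobase of exon for 14 isoform pairs, 1 point per library (squares, batch 1; circles, batch 2) and a black bar at the mean of 5. The pairs for actin, myosin heavy chain and troponin I average 6.47, 5.61 and 5.12, and the pairs Cox7a1 over Cox7a2, Ckm over Ckb and Cpt1b over Cpt1a lie below 0 in all 5 libraries.

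Genes used in fetal and stressed hearts were not uniformly low. Ankrd1, a titin-associated protein induced by stretch, had 1672, 1151, 2898, 1584 and 1037 CPM and ranked 42 of all genes. Nppb, brain natriuretic peptide, had 328 CPM in Control 1 and 85.5 to 143 CPM in the other 4. Cacna1g, a T-type calcium channel of the immature and pacemaking heart, averaged 584 ± 157 CPM, and Hcn4, the pacemaker channel, 4.97 CPM. The list of 17 fetal growth and imprinted genes summed to 1749 ± 130 CPM, led by Peg3 (558 CPM), Meg3 (481 CPM) and Grb10 (325 CPM). The fetal regulators Lin28a and Hmga2 averaged under 1 CPM, H19, a fetal noncoding RNA, had 53.2 ± 22.6 CPM, and Igf2 averaged 1.69 CPM with 62.8% of its exon bases overlapped by other genes.

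The 11 calcium handling and T-tubule genes summed to 8435 ± 777 CPM. Ryr2, the calcium release channel, had 1007, 1117, 766, 1026 and 1314 CPM, and Casq2, the calcium store protein calsequestrin, had 818, 650, 630, 807 and 743 CPM. The batches overlapped for both genes, but not for Trdn, Cacna1c, Camk2d, Slc8a1 and Bin1, 5 of 11 members against 32.4% of all genes tested. Trdn, triadin of the calcium release complex, had 736 and 752 CPM in batch 1 and 552, 281 and 256 CPM in batch 2, and Camk2d, a calcium-dependent kinase, 304 and 323 CPM in batch 1 and 328, 467 and 519 CPM in batch 2. By edgeR 0 of 11 were called between batches, where 0.378% of all genes tested were called. Of the 11, 3 had an unadjusted p under 0.05 by edgeR, against 2250 of all 16133 genes tested. DESeq2 and limma-voom called 0. T-tubule genes were lower, with Jph2, junctophilin, at 164 ± 37.6 CPM and Bin1, which bends the tubule membrane, at 25.4 ± 9.44 CPM. Slc8a1, the sodium-calcium exchanger, averaged 19.2 CPM, and Pln, phospholamban, 153 CPM with 59.6% of its exon bases overlapped on the other strand. Among channels, Kcnh2, of the rapid delayed rectifier, averaged 529 CPM. Kcnj2 and Kcnj12, inward rectifiers that hold the resting potential, averaged 10.2 and 2.09 CPM. Kcnj11, the pore of the ATP-sensitive potassium channel, was called lower in batch 1 (1 of 10 channel genes, where 0.13% of all genes tested were called lower; the call ended without Control 1, 2, 4 or 5), with 34.7 and 31.9 CPM in batch 1 and 92.3, 76.3 and 99.6 CPM in batch 2.

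Fuel genes of both kinds were expressed. Glycolytic and glucose uptake genes (19) summed to 8542 ± 810 CPM and fatty acid genes (17) to 3653 ± 507 CPM, and per length to 11733 ± 1163 and 5051 ± 424. Fabp3, the heart fatty acid-binding protein, had the highest length-scaled level of the fatty acid list, 2308 ± 406, and Eno3 that of the glycolytic list, 4124 ± 544. Hadha, of the trifunctional protein, and Acadm, medium-chain acyl-CoA dehydrogenase, averaged 704 and 657 CPM. Of the regulators, Esrra, an orphan receptor that drives mitochondrial genes, had 499, 482, 503, 493 and 566 CPM. Ppargc1a, its coactivator, averaged 31.9 CPM and Ppara, the fatty acid-sensing receptor, 6.32 CPM. The 12 nuclear genes of mitochondrial energy production were the steadiest list, with sums of 6099, 6075, 6005, 5711 and 5883 CPM. The sums of batch 1 were slightly above those of batch 2.

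Cardiac transcription factors summed to 1808 ± 84.4 CPM over 15 genes. Mef2a, a MADS-box muscle factor, was the most abundant with 753, 791, 678, 728 and 702 CPM, an SD of 0.09 on the log2 scale. Gata6 and Gata4, zinc finger factors of heart, averaged 130 and 98.8 CPM, and Nkx2-5, a homeobox factor, 33.5 CPM. Thra, a thyroid hormone receptor, had 116 and 79.8 CPM in batch 1 and 261, 164 and 173 CPM in batch 2. Hand1, which is restricted to parts of the embryonic heart, was at 0 in all 5 libraries. Rbm24, another splicing factor of heart muscle, averaged 233 CPM.

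Cell division genes set Control 3 apart. Their mean levels ran from 264 CPM for Mki67, rank 610 of all genes, to 9.54 CPM for Rrm2. Mki67, a marker of cycling cells, had 308, 214, 51.8, 475 and 269 CPM. Top2a, the mitotic topoisomerase, had 38.9, 26.3, 4.69, 57.2 and 39.6 CPM, and Ccnb1, mitotic cyclin B1, 20.0, 13.9, 1.23, 42.9 and 24.5 CPM. Control 3 was the lowest library for all 15 genes of the list, against the 34% of all 16133 tested genes given above. The median of the other 4 libraries was 1.34 to 18.1 times the value of Control 3, with a median over genes of 4.27. Scaled by TMM, 14 of the 15 genes were lowest there, Mcm2, a replication helicase subunit with 16.6 CPM against 16.9 CPM in Control 2, being the exception. Control 3 also had the lowest sums of the fibroblast list (1457 CPM against 2370 to 3096 CPM), the macrophage list (60.2 against 120 to 278 CPM) and the erythroid list (173 against 458 to 630 CPM), the highest cardiomyocyte sum and the lowest mitochondrially encoded share. The part of other cell types in the low cell division genes was not tested. Immediate early genes were low there as well, with Egr1, a growth-induced zinc finger factor, at 2.78 CPM against 17.1 to 44.4 CPM and Fos at 2.37 CPM against 11.4 to 26.5 CPM.

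Control 2 stood apart in interferon response and antigen presentation genes. Interferons bind receptors that activate STAT factors, Stat2 among them, which raise genes with an interferon-stimulated response element (ISRE) in their promoters. Genes raised by interferon include the GTPases Igtp, Irgm1 and Gbp2 and the class I antigen presentation genes H2-K1, H2-D1, B2m and Tap1. The promoter windows of 4 of them are shown because their transcripts were high together in 1 library. They are the 250 bases before the RefSeq start in GRCm38.p6, at chr11:58199306-58199555 on the plus strand for Igtp, chr11:48871421-48871670 on the minus strand for Irgm1, chr3:142620413-142620662 on the plus strand for Gbp2 and chr2:122147437-122147686 on the plus strand for B2m. Matches to GAAA, any 2 bases and GAAA again, or to the reverse complement, are in capitals, and the matches in Irgm1 overlap each other.
Igtp: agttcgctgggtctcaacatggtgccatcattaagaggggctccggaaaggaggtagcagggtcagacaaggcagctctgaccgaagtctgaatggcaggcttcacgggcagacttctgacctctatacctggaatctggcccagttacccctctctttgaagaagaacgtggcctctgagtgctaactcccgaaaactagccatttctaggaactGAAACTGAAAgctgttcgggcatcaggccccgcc
Irgm1: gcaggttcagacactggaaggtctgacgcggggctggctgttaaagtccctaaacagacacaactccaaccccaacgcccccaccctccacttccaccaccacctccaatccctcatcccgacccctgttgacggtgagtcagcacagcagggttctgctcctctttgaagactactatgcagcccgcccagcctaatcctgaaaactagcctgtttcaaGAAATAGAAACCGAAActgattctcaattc
Gbp2: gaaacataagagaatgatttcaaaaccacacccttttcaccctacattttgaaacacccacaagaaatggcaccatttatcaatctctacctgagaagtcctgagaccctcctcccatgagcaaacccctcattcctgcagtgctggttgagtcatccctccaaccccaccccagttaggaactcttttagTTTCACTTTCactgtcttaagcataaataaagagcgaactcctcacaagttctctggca
B2m: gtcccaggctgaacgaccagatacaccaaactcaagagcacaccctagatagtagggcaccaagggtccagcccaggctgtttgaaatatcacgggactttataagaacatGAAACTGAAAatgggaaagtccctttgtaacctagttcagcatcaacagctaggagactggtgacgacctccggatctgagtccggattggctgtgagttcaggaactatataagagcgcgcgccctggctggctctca
The motif was in the windows of 9 of 16 list genes with a window (B2m, Stat2, Isg15, Ifit1, Ifit3, Gbp2, Gbp3, Igtp and Irgm1), in 0 of 13 cell division genes and in 3.46% of all genes with a window. H2-K1, H2-D1 and Tap1 were not among the 9, and the windows shown were taken from genes with a match. These are matches of letters only.

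H2-D1 and H2-K1, class I heavy chains, had 93.9 and 41.1 CPM in Control 1, 1540 and 1147 CPM in Control 2, and 22.1 to 57.3 CPM in Controls 3, 4 and 5. Tap1, which carries peptides to class I molecules, had 35.1, 1063, 17.6, 30.3 and 29.9 CPM. B2m, the class I light chain, had 26.6, 346, 4.46, 18.3 and 21.4 CPM, and Igtp, an immunity-related GTPase, had 2.84, 593, 0.592, 2.44 and 3.72 CPM. Control 2 was the highest library for all 17 genes, where 27% of all tested genes were highest in Control 2. For the 15 genes whose median in the other 4 libraries was above the limit that a count of 0 allows, Control 2 was 3.85 to 224 times that median, with a median over genes of 28.6. H2 class I genes are closely related to each other, so reads may be split among them. The list summed to 422, 7146, 228, 411 and 433 CPM, a mean of 1728 CPM with Control 2 and of 374 ± 97.4 CPM without it. Control 1, of the same batch, did not share the high values. In edgeR's test between batches 0 of 17 genes passed (3 had an unadjusted p under 0.05, and DESeq2 called 4 and limma-voom 0). Of all genes tested 0.378% were called by edgeR, so edgeR's 0 of 17 does not set this list apart. DESeq2 called 668 of all 16133 genes, so its 4 of 17 is a larger share than over all genes. Over all genes limma-voom called 76, and 2250 had an unadjusted p under 0.05 by edgeR.

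Other values also set Control 2 apart. Its macrophage list summed to 278 CPM against 60.2 to 147 CPM in the others, with 8 of 12 members highest there, and its lymphocyte list to 43.9 CPM against 14.4 to 27.7 CPM. Ptprc, CD45 of all white cells, had 24.3 CPM against 5.06 to 12.8 CPM, and Cd3e and Nkg7, of T and killer cells, averaged under 1 CPM. Endothelial genes were highest there too, in 11 of 14 members, and Nr4a1, an immediate early orphan receptor, had 335 CPM against 54.9 to 117 CPM. The part of these cells, or of the mitochondrially encoded share of 67.5%, in the interferon genes was not tested.

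**Figure D4:**
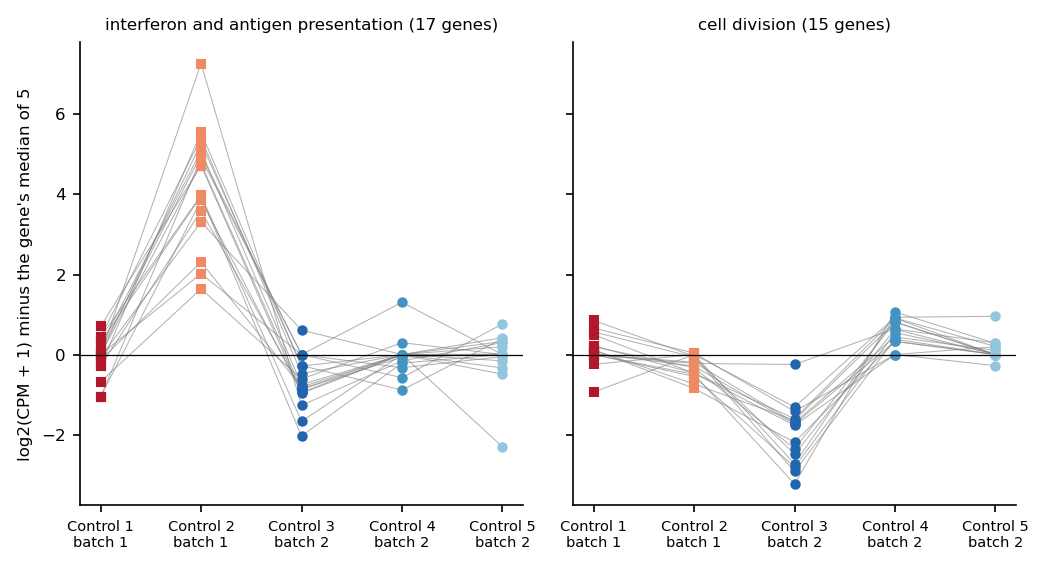
Difference of log2(CPM + 1) from the gene's median of the 5 Control libraries, for 17 interferon and antigen presentation genes and 15 cell division genes, with 1 line per gene (squares, batch 1; circles, batch 2). All 17 genes of the first list are highest in Control 2 and all 15 of the second are lowest in Control 3.

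Spread was measured as the SD of log2 CPM over the 5 libraries for the 5210 genes with a mean log2 CPM of at least 5. The median SD was 0.30, with 0.12 at the 5th percentile and 0.73 at the 95th, and 77 genes (1.48%) were over 1. Across these genes, which are not independent replicates, Pearson's correlation between 2 libraries ran from 0.844 (Controls 2 and 3) to 0.970 (Controls 4 and 5). Controls 2 and 3 were the libraries farthest from the rest. Control 2 was at least 2-fold above all others in 42 genes and below all others in 22, and Control 3 in 22 and 101, while Controls 1, 4 and 5 each had at most 7 in the 2 directions. Corin, the protease that activates natriuretic peptides, was one of the genes high in Control 3, with 755 CPM against 185 to 217 CPM, and Espl1, separase of mitosis, one of those low there, with 10.6 CPM against 64.6 to 98.6 CPM.

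The steadiest genes by this SD were Mapk8, Atp5a1, Antxr2, Cplane1, Clk2, Txnrd2, Nudc, Eri3, Csnk2b and Fermt2. Atp5a1, the alpha subunit of ATP synthase, had 904, 882, 866, 892 and 845 CPM, and Mapk8, the stress kinase JNK1, 50.4, 48.6, 48.4, 50.3 and 50.7 CPM. Gapdh, a common reference gene, was less even, with 132 CPM in Control 3 against 337 to 390 CPM in the other 4. The most variable genes were H2-K1, H2-D1, Tap1, H2-Q4, Ddx60, Zfp868, Cwc22, Fignl1, Parp14 and Alpk1. All of these but Zfp868 and Fignl1 were highest in Control 2. Zfp868, a zinc finger gene, followed no batch: it had 117 and 116 CPM in Controls 1 and 2, 9.34 and 10.6 CPM in Controls 3 and 4, and 155 CPM in Control 5. Fignl1, a recombination ATPase, had 47.3, 12.6, 5.01, 112 and 96.8 CPM, and Alpk1, an innate immune kinase, 131, 198, 87.8, 43.1 and 8.6 CPM.

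Whether the 2 batches differed was tested with edgeR's quasi-likelihood test on TMM-scaled counts over 16133 genes, with 2 libraries of batch 1 over 3 of batch 2. With a Benjamini-Hochberg adjusted p under 0.05, 61 genes (0.378%) were called, 40 higher in batch 1 and 21 lower (0.13%). In this design 2250 genes had an unadjusted p under 0.05. With 2 libraries against 3 the test can miss many genes that differ, so a gene that was not called is not shown to be alike in both batches. The count rests on single libraries: it was 7, 15 and 18 without Controls 4, 5 and 2, and 255 and 106 without Controls 1 and 3. Batch is mixed with the share of mitochondrially encoded RNA and in part with Xist, and these cannot be told apart.

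Ribosomal protein genes and copies of mitochondrial genes stood out among the calls. Of 76 ribosomal protein genes tested, 9 were called higher and 0 lower in batch 1, where 0.248% of all genes tested were called higher. Their median log2 difference was 0.80, against -0.04 over all genes. The set took symbols of Rpl or Rps followed by a number. It left out Rplp0, which was also called higher. The summed share of the set was 1.05% and 1.19% in batch 1 and 0.492%, 0.621% and 0.717% in batch 2. These messages are abundant in cytoplasm. Of 15 nuclear pseudogenes at least 90% identical to mitochondrially encoded genes, 5 were called higher in batch 1, against the same 0.248% of all genes. Reads of the mitochondrial genome can be placed in either copy. Both sets were listed after their values were seen. Mb, myoglobin, also chosen after its values were seen, had 224 and 230 CPM in batch 1 and 70.9, 79.2 and 108 CPM in batch 2 (1.30 ± 0.20 log2, adjusted p = 0.0331 by edgeR's test).

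**Figure D5:**
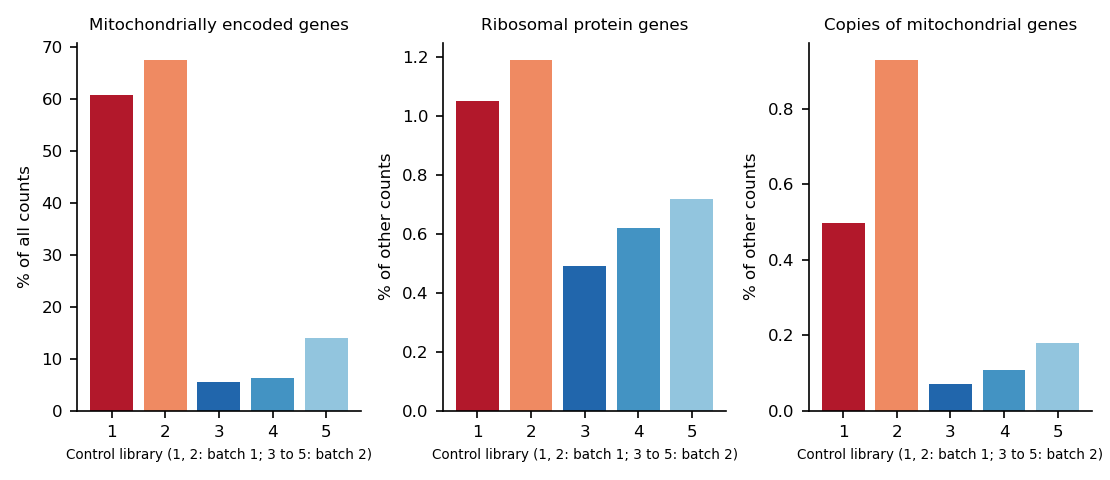
Percent of all counts in mitochondrially encoded genes, and percent of the other counts in ribosomal protein genes and in pseudogene copies of mitochondrial genes, as bars for Controls 1 to 5. Controls 1 and 2 of batch 1 are above Controls 3, 4 and 5 of batch 2 in all 3 panels, at 60.7% and 67.5% against 5.54% to 13.9% in the first.

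The largest rises in batch 1 among genes with a full symbol were Rpl26, Rps3a3, Cwc22, Ccnd1 and Cenpb. Rpl26, a large ribosomal subunit protein, had 184 and 200 CPM in batch 1 and 2.82, 3.29 and 4.46 CPM in batch 2, a log2 difference of 5.67 ± 0.25 (SE, adjusted p = 4.28e-06 by edgeR). Rps3a3 is annotated as a processed pseudogene, so its 65.4 and 67.9 CPM against 0.533 to 2.18 CPM are uncertain. Cwc22, a spliceosome factor that loads the exon junction complex, had 684 and 712 CPM in batch 1 and 67.2, 59.2 and 53.0 CPM in batch 2 (3.41 ± 0.23 log2, adjusted p = 0.000191 by edgeR). Ccnd1, the G1 cyclin D1, had 21.7 and 29.0 CPM against 1.82, 3.78 and 4.94 CPM, and Cenpb, a centromere protein, 58.1 and 74.2 CPM against 7.47, 8.93 and 15.1 CPM. Fabp4 had 178 and 261 CPM in batch 1 and 36.2, 48.9 and 77.2 CPM in batch 2 (1.94 ± 0.27 log2, adjusted p = 0.0204 by edgeR).

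The largest falls were Unkl, Slc19a3, Trdmt1, Cd1d1 and Adamts3. Unkl, a relative of the zinc finger protein unkempt, was at 0 in both batch 1 libraries and had 5.06, 5.73 and 8.33 CPM in batch 2, so it was at least 24.9-fold lower (against 3 counts over the batch 1 libraries). Slc19a3, a thiamine transporter, had 2 counts in batch 1 and 580 in batch 2, where its level was 54.5 times as high (exact 95% interval 15 to 451, counting error only). Trdmt1, an RNA methyltransferase, had 6.14 and 13.1 CPM in batch 1 and 66.5, 60.4 and 69.0 CPM in batch 2 (-2.89 ± 0.36 log2, adjusted p = 0.0132 by edgeR). Cd1d1, a lipid-presenting molecule, had 10.6 and 5.58 CPM against 33.2, 40.3 and 78.2 CPM, and Adamts3, a procollagen protease, 4.88 and 6.30 CPM against 23.4, 23.5 and 34.4 CPM. Each call was refitted without 1 library at a time. Those of Rpl26, Rps3a3 and Cwc22 held in all 5 refits, with edgeR's adjusted p at most 0.000507, 0.0121 and 0.00705. By the same edgeR test the call of Trdmt1 ended without Control 4 or 5 (highest adjusted p = 0.0645), those of Cenpb and Fabp4 without Control 2 or 4 (0.0741 and 0.128), and those of Ccnd1, Cd1d1 and Mb without Control 2, 4 or 5 (0.187, 0.168 and 0.191). Slc19a3 ended without Control 3, 4 or 5 (0.198), Unkl without any but Control 1 (0.227), Kcnj11 without any but Control 3 (0.172) and Adamts3 in all 5 refits (0.202).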

How the data were processed

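The data were RNA-seq read counts of heart nuclei enriched for PCM1, for 14 libraries, of which the 5 Control libraries were used. The deposited values were whole-number counts per Ensembl gene, not normalized; STAR, edgeR and limma and the build GRCm38 were named in the submitters' processing notes, while the sources used here name no counting program, annotation release, strand setting or treatment of introns. RNA came from a column kit for DNA and RNA and libraries were non-directional, per the labels' protocols, so overlapping genes cannot be told apart by strand.

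The table held 54446 genes, 54409 of which matched GENCODE vM21 by ID, which gave symbols, biotypes, exon lengths and positions on GRCm38. The 37 mitochondrially encoded genes were removed, CPM was taken over the rest, and log2 CPM used a prior count of 2. Where a symbol had several IDs, the ID with most counts was used; 1 symbol (Norad) was matched by its provisional name. Batch 1 was tested against batch 2 with edgeR 4.0.16 in R 4.3.3 (quasi-likelihood, robust, TMM, filterByExpr with minimum counts of 10 and 15, two-sided, Benjamini-Hochberg), and SEs are the log2 difference over the root of F. The procedure was tested on simulated data, where it recovered fold sizes on average but called very few of the genes made to differ. The simulation gave every gene 1 common spread, 0.52 of its level. That is wider than the spread of most genes with a mean log2 CPM of at least 5 (median SD 0.30 log2). Its number of calls therefore does not carry over to them. DESeq2 1.42.0, limma 3.58.1, other scalings and filters, and fits without each library were tried. Pseudogenes were matched to mitochondrially encoded genes with blastn 2.17.0 (at least 90% identity over 80% of their length). Promoter windows came from RefSeq (GRCm38.p6).

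There were 31 gene lists of 295 genes. Members, lists and tests were chosen with earlier results of these data known. Named genes were the 30 of highest mean CPM, the genes of the isoform pairs, the 3 members of each list with the highest mean CPM and any defining marker that was low or absent, the 10 most and 10 least variable genes with a mean log2 CPM of at least 5 (without Xist, Y-linked genes and provisional symbols), and the 5 largest called rises and falls between batches with a mean log2 CPM of at least 1, non-overlapping groups and a symbol that is not provisional. Others named in the text were chosen after their values were seen. Depth was 5554085 to 22503322 nuclear-gene counts per library, and intervals cover counting error only. Results for a few genes are not reported here.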

Additional observations from a re-analysis of the deposited data

Results flagged for a closer look

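A value was noted when the highest or lowest of the 5 Control libraries was separated from its neighbour by more than 0.71 of the whole range. For normally distributed values, chance gives such a gap in about 1 of 20 groups. The gap was found for 33 of 163 genes named, 4 of 31 lists and 2 of 14 isoform pairs. These counts cannot be set against that rate. Some genes were named for their spread or after their values were seen, and lists were chosen with earlier results known. The rule was also applied to CPM at very low levels, where values need not be normally distributed. Of the 33 genes, 18 were high in Control 2. These were the interferon and antigen presentation genes H2-D1 (1540 CPM), H2-K1 (1147 CPM), Tap1 (1063 CPM), Stat2 (813 CPM), Igtp (593 CPM), Irgm1 (382 CPM), B2m (346 CPM), Gbp3 (285 CPM), Gbp2 (61.9 CPM), Ifit1 (56.4 CPM) and Ifit3 (35.5 CPM), and, outside that list, Ddx60 (894 CPM), H2-Q4 (568 CPM), Parp14 (359 CPM), Nr4a1 (335 CPM), Csf1r (84.1 CPM), Tnnt3 (36.5 CPM) and Cd3e (1.8 CPM). The interferon and antigen presentation list summed to 7146 CPM in Control 2, and the skeletal muscle list, mostly Tnnt3, to 43.4 CPM. Slc2a4 over Slc2a1 was also highest there, at a log2 ratio of 5.83, with Slc2a1 at 1.98 CPM.

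Control 3 was high in Tpm1 (4929 CPM), Slc4a3 (3969 CPM), Peg3 (814 CPM), Corin (755 CPM) and, with Tpm1 in it, the thin filament list (27123 CPM), low in Gapdh (132 CPM), and high in the log2 ratio of Actc1 over Acta1 (9.03). Control 1 was low in Tnnt2 (13146 CPM) and high in Nppb (328 CPM), Ckm (94.1 CPM) and Kcnj12 (4.73 CPM). Control 5 was high in Esrra (566 CPM), Ucp1 (34.1 CPM), Scgb1a1 (5.25 CPM) and the adipocyte list (49.9 CPM). At low levels, Nkg7 (1.14 CPM) and Lin28a (0.41 CPM) were high in Control 3 and Hba-a2 (0.106 CPM) in Control 5.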

How the results depend on the processing

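Of the 30 leading genes, 27 to 30 were among the 30 highest under TMM or DESeq2 scaling, with all counts in the total, without mitochondrial pseudogenes (chosen after seeing the data), in batch 2 alone and without any 1 library (28 to 29), and 13 per kilobase of exon. The cardiomyocyte list took 9.83% of counts, 7.07% with all counts in the total, 7.18% per kilobase, and 9.33% to 10.2% without any 1 library. The number of isoform pairs higher in all libraries was 9 without length and 11 in every other setting tried, and the median SD was 0.23 in batch 2 alone and 0.26 to 0.31 without any 1 library. Of 2231 alternative values of single genes, lists and pairs, 2031 moved by less than 1 SD, 0 changed sign, and 200 moved further, all of them with all counts in the total (84), per kilobase (108) or without length (8). Leaving out 1 library or taking batch 2 alone cannot move a mean over the Control libraries by 1 SD. Those settings could only count as unmoved, so they say nothing of stability. CPM cannot change sign, so only the pairs could have done so.

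The 61 genes called between batches became 716 (389 higher, 327 lower) with no filter, 141 (95 and 46) with a stricter one, 668 (351 and 317) with DESeq2, 531 (237 and 294) when all 14 libraries shared 1 spread, and 7 to 255 without any 1 library. By library total alone 54 were called (44 and 10), by limma-voom 76 (61 and 15). Of Rpl26, Rps3a3 and Cwc22, whose calls held without any 1 library, Rpl26 was called in every setting tried, while Rps3a3 and Cwc22 were not with all 14 libraries (edgeR's adjusted p = 0.233 and 0.0837). The cause was not tested. No paired analysis was possible because the batches of Control share no replicate numbers. Depth limits batch 1, where 3 counts are 0.473 and 0.540 CPM.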
